A study of Homo sapiens with 12 samples.

Results

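The 10 genes described here encode inhibitors of signaling through ERK or the related kinases JNK and p38, several of which ERK signaling itself induces. The set is made up of the dual-specificity phosphatases DUSP1, DUSP2, DUSP4, DUSP5, DUSP6, DUSP8 and DUSP10, the Sprouty proteins SPRY2 and SPRY4, and the Sprouty-related protein SPRED1. They were taken by symbol from the 58037 Ensembl identifiers of the count matrix, and all 10 symbols matched an identifier. The genes were chosen by their levels in the vehicle and DOX samples of both lines, so their vehicle-DOX values are a description with no test. RNA-seq was performed on 2 human prostate cancer cell lines, DU-145 and LNCaP-AI, each stably carrying the tet-MUC1shRNA construct and each treated with vehicle or doxycycline (DOX), with 3 samples per group and 12 samples in all.

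DU-145 is an androgen-independent prostate cancer line. LNCaP-AI cells were derived from C4-2B cells, themselves descendants of the androgen-dependent LNCaP line, by long culture without androgen. The sample labels give androgen-depleted medium (phenol red-free, with charcoal-stripped serum) for both lines, whereas the methods give it for LNCaP-AI cells and ordinary serum for DU-145 cells, so line and medium cannot be told apart where the lines are compared. All 4 groups carry the DOX-inducible hairpin against MUC1 in the pLKO-tet-puro vector, selected with puromycin. The vehicle was DMSO, and treatment lasted for a week. The sample labels name the groups shCTL and shMUC1, whereas the design text describes one tet-MUC1shRNA cell population per line with and without DOX, and this second reading is used here. Cells with a control hairpin and DOX were not analysed here, so the hairpin and DOX itself cannot be told apart in any vehicle-DOX comparison.

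Growth factor receptors activate RAS, which drives the kinases RAF, MEK and ERK in turn. Active ERK induces several of its own inhibitors. Dual-specificity phosphatases remove phosphate from the activation loop of ERK, JNK or p38, while Sprouty and SPRED proteins act at the membrane, upstream of RAF. Because their transcripts follow ERK output, DUSP6, SPRY2 and SPRY4 are widely used as readouts of the pathway. In prostate tissue, Sprouty genes are known as inhibitors of fibroblast growth factor signaling.

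Gene counts summed to between 10423437 and 13544153 in the DU-145 samples and between 16569613 and 26961777 in the LNCaP-AI samples. MUC1, the target of the hairpin, had 74, 60 and 59 counts in DU-145 vehicle samples and 3 counts in each of the DOX samples, a ratio of 21.8 once scaled to depth (exact 95% interval 11.3 to 48.4, counting error only). In LNCaP-AI cells MUC1 was 5.65-fold lower with DOX (edgeR quasi-likelihood test, adjusted p = 0.0139). Of 7 markers of the LNCaP lineage, all 7 were detected above 3 counts in every LNCaP-AI sample, whereas KLK2, KLK3, FOLH1 and HOXB13 were at 0 in all DU-145 samples. Fibroblast markers summed to at most 28 CPM (counts per 1000000 library counts, with TMM scaling over all 12 samples) and leukocyte markers to at most 0.342 CPM in any sample.

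The LNCaP-AI samples did not group by treatment. A principal component analysis of these samples gave a leading axis with 82.5% of the variance, which put vehicle 2, vehicle 3 and DOX 1 on one side and vehicle 1, DOX 2 and DOX 3 on the other. No label gives a batch that matches this division. A list of 5 markers of DU-145 cells (VIM, CAV1, CAV2, CD44, ITGA2) summed to between 302 and 322 CPM in vehicle 2, vehicle 3 and DOX 1, against 51.1 to 81.1 CPM in the other LNCaP-AI samples and 1726 to 2074 CPM in DU-145 cells. Of these, 4 were higher in all of vehicle 2, vehicle 3 and DOX 1 than in the other LNCaP-AI samples, and VIM was not. CD44, for example, was at 0 in vehicle 1. LNCaP lineage markers were present throughout, with sums of 1648 and 1510 CPM in vehicle 2 and 3, 2338 CPM in vehicle 1, 2932 CPM in DOX 1, and 3879 and 3934 CPM in DOX 2 and 3. LNCaP-AI values of the 10 genes are therefore given per sample and within each side of this division. In bulk RNA, a change in the share of a cell type and a change of RNA per cell cannot be told apart.

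Promoter sequences are shown for 5 genes that, in LNCaP-AI cells, either followed the division (DUSP6, SPRY4) or did not (DUSP1, DUSP2, DUSP8). Each is the stretch of 250 bases before the RefSeq start on GRCh38.p14, read on the minus strand of chr5:172771196-172771445 for DUSP1, chr2:96145441-96145690 for DUSP2, chr11:1572272-1572521 for DUSP8, chr12:89352502-89352751 for DUSP6 and chr5:142324248-142324497 for SPRY4. Capitals mark, on either strand, TGACGTCA (the full cAMP response element bound by CREB and ATF factors), TGACG (its shorter form, held within it), CCGGAA (ETS factors), TGANTCA (AP-1), CACGTG (the E-box bound by MYC and MAX) and the CArG box of SRF.
DUSP1: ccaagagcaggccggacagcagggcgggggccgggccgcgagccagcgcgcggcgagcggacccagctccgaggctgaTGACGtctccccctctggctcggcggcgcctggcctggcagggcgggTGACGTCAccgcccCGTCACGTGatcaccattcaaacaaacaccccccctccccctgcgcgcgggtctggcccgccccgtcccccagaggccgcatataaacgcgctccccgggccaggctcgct
DUSP2: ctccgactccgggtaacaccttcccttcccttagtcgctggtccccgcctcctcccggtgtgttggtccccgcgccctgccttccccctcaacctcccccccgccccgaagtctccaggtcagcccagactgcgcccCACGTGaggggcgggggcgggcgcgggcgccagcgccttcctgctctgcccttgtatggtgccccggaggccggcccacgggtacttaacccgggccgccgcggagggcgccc
DUSP8: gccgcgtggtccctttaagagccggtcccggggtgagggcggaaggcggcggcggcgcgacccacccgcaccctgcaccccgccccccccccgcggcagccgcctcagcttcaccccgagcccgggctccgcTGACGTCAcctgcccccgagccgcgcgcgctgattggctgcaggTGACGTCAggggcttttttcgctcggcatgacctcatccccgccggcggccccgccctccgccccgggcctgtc
DUSP6: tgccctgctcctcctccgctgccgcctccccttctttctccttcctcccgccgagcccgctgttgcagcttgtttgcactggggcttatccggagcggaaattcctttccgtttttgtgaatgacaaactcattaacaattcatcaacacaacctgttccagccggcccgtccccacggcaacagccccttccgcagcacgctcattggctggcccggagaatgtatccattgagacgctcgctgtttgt
SPRY4: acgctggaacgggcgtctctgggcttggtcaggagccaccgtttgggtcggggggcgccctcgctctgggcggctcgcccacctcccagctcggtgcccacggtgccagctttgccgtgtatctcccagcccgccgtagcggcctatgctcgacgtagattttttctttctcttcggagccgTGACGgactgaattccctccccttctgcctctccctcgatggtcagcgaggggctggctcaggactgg

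Promoters were in the RefSeq table for 8 of the 10 genes, and DUSP4 and DUSP5 were not matched there. TGACGTCA occurred once before DUSP1 and 2 times before DUSP8, and 1.65% of all 35116 promoters of the same length hold it. The shorter TGACG was also present before SPRY4 and before one of the SPRY2 starts (21.2% of all promoters), and CACGTG before DUSP1 and DUSP2 (6.34%). In DUSP1 the CACGTG overlaps a TGACG match. No CCGGAA (14.5% of promoters), TGANTCA (6.57%) or CArG box (1.16%) stands in the 5 stretches shown, and the DUSP6 stretch holds no motif of this set. GGGCGG, the GC box, was counted but not capitalised, and 42.6% of all promoters hold it. These matches describe letters only.

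In DU-145 cells with DOX, the levels of the nuclear ERK phosphatase DUSP5, of SPRY4 and of the cytoplasmic ERK phosphatase DUSP6 were 4.19-fold, 2.47-fold and 1.91-fold those with vehicle. DUSP1 followed at 1.59-fold and DUSP4 at 1.45-fold. SPRED1, DUSP10 and SPRY2 differed by less than 1.3-fold, and DUSP2 and DUSP8 had too few counts to be fitted.

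**Figure D1:**
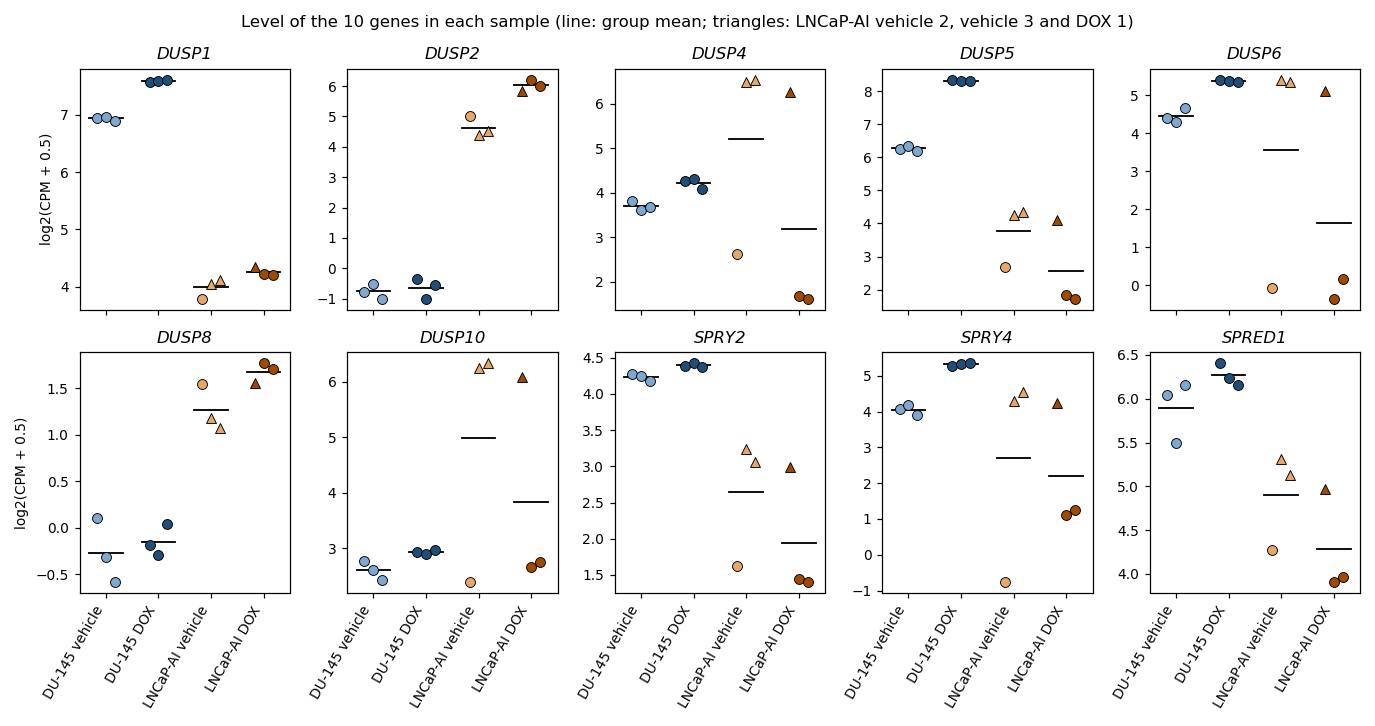
Level of each of the 10 genes in all 12 samples, on the scale of log2(CPM + 0.5), by group. Points are samples, horizontal lines mark the mean of the plotted values, and triangles mark LNCaP-AI vehicle 2, vehicle 3 and DOX 1. The DU-145 DOX samples sit above the vehicle samples for 8 genes, while in LNCaP-AI cells the triangles stand apart from the circles for 7 genes.

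DUSP5 (ENSG00000138166, chromosome 10, 110497907 to 110511533, GRCh38) encodes a nuclear phosphatase with a strong preference for ERK. It was at 76.1, 80.9 and 72.7 CPM in the vehicle samples and at 326, 315 and 315 CPM in the DOX samples of DU-145 cells. The groups lay far apart, each within a narrow range. On the log2 scale the difference was 2.07 (SE 0.0697).

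DUSP6 (ENSG00000139318, chromosome 12, 89347235 to 89352501) encodes the phosphatase that holds ERK in the cytoplasm. DU-145 vehicle samples had 20.6, 19.1 and 25.2 CPM and DOX samples 42.3, 41.1 and 40.4 CPM. No vehicle sample reached the lowest DOX sample, and the log2 difference was 0.93 (SE 0.0981). A lncRNA gene on the opposite strand (ENSG00000274021) overlaps DUSP6, and the strand setting of the counting is not given in the sources used here, so reads of the pair could be mixed.

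DUSP1 (ENSG00000120129, chromosome 5, 172768096 to 172771195), an immediate-early phosphatase of p38 and JNK as well as ERK, was at 122, 125 and 119 CPM with vehicle and at 190, 193 and 196 CPM with DOX in DU-145 cells. Spread within each group was small beside the gap between them, and the log2 difference was 0.67 (SE 0.0648). DUSP4 (ENSG00000120875), a nuclear phosphatase induced by sustained ERK activity, had 13.6, 11.8 and 12.2 CPM with vehicle and 18.9, 19.4 and 16.4 CPM with DOX. Its groups did not overlap either, with a log2 difference of 0.54 (SE 0.112). DUSP1 also has an overlapping lncRNA on the opposite strand (ENSG00000253736).

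DUSP10 (ENSG00000143507, chromosome 1, 221701424 to 221742089) acts mainly on p38 and JNK. Its DU-145 level was 6.30, 5.56 and 4.87 CPM with vehicle and 7.07, 6.92 and 7.26 CPM with DOX, a log2 difference of 0.35 (SE 0.158). The lowest DOX sample stood close above the highest vehicle sample. DUSP8 (ENSG00000184545, chromosome 11, 1554051 to 1572271), another phosphatase of p38 and JNK, had 7, 3 and 2 counts with vehicle and 4, 4 and 6 with DOX, and DUSP2 (ENSG00000158050, chromosome 2, 96143169 to 96145440), a nuclear phosphatase best known from activated lymphocytes, had 1, 2 and 0 counts with vehicle and 3, 0 and 2 with DOX. Both were at or near the floor of 3 counts in DU-145 cells, and a difference was not detectable at this depth.

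SPRY4 (ENSG00000187678, chromosome 5, 142310427 to 142326455) and SPRY2 (ENSG00000136158, chromosome 13, 80335976 to 80341126) encode membrane-recruited inhibitors of receptor tyrosine kinase signaling. SPRY4 was at 16.4, 17.6 and 14.4 CPM in the vehicle samples and at 38.5, 39.9 and 40.5 CPM in the DOX samples of DU-145 cells, a log2 difference of 1.31 (SE 0.0931). SPRY2 was at 18.9, 18.5 and 17.6 CPM with vehicle and at 20.5, 21 and 20.1 CPM with DOX, a log2 difference of 0.17 (SE 0.0956). So the Sprouty genes, at similar CPM with vehicle, stood well apart with DOX. SPRY4 overlaps SPRY4-AS1 and 2 short RNA genes on the opposite strand.

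SPRED1 (ENSG00000166068, chromosome 15, 38252836 to 38357249) encodes a membrane protein that brings the RAS inhibitor neurofibromin to RAS. It had 65.3, 44.5 and 70.6 CPM with vehicle and 84.4, 75.1 and 70.8 CPM with DOX in DU-145 cells. Vehicle 2 was low, and the lowest DOX sample barely exceeded the highest vehicle sample. The log2 difference was 0.35 (SE 0.117).

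For all 8 genes fitted in DU-145 cells, the lowest DOX sample exceeded the highest vehicle sample, as was the case for 29.1% of the 13644 genes tested, while 28.2% had every DOX sample below. With edgeR, 6 of the 8 were called higher (26.3% of all genes tested) and 0 lower (25.3% of all genes; 0 of the 8 also at an unadjusted p under 0.05 and 0 with DESeq2). Nothing is read from these counts, because this contrast chose the genes. In a fit over all 12 samples, which takes its spread in part from the divided LNCaP-AI samples, 2 members were called among 4083 genes. SPRED1 was not called with DESeq2 or without DOX replicate 1.

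**Figure D2:**
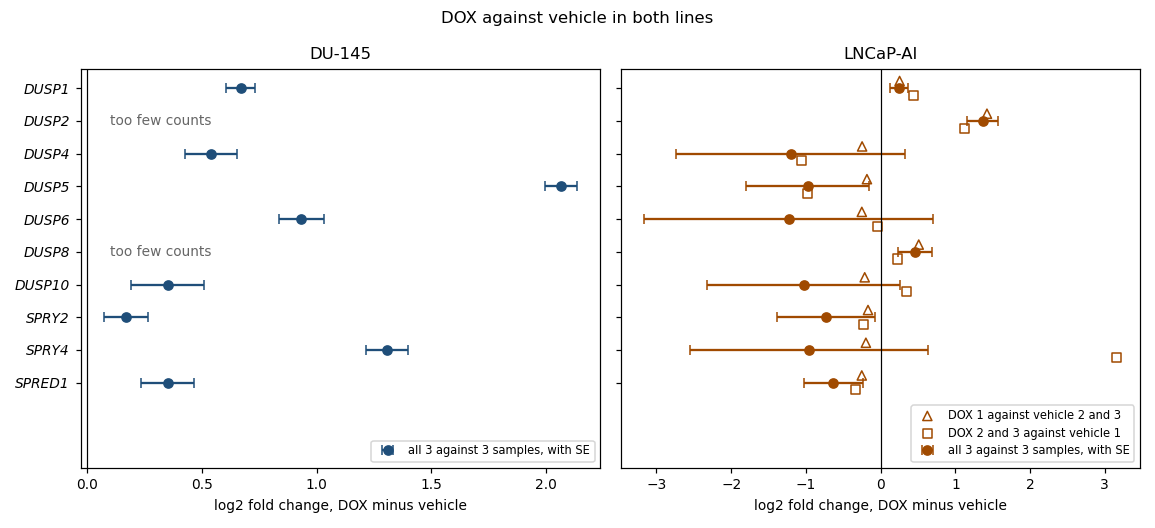
The log2 fold change (DOX minus vehicle) of each gene with its SE, in DU-145 cells on the left and LNCaP-AI cells on the right. Open symbols give LNCaP-AI values within each side of the division, with no error. In DU-145 cells values run from 0.17 (SPRY2) to 2.07 (DUSP5), while in LNCaP-AI cells the bars of 7 genes are wide and DUSP2 has the highest filled point at 1.36.

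Compared per length (RPKM, the CPM divided by the exon length in kilobases), DUSP1 was the most abundant of the 10 in DU-145 vehicle samples at 60.6 ± 1.51 RPKM (SD, n = 3), followed by DUSP5 at 30.2 ± 1.61 RPKM. In the DOX samples DUSP5 stood first, at 126 ± 2.41 RPKM, and DUSP1 second, at 95.8 ± 1.49 RPKM. SPRED1, SPRY2 and DUSP6 had 7.76, 5.71 and 5.60 RPKM with vehicle, and neighbours in that order overlapped between samples. SPRY4, DUSP10 and DUSP4 lay below them, at 2.46, 1.97 and 1.73 RPKM, and each overlapped with the next.

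In LNCaP-AI cells DUSP2 was the gene with the largest vehicle-DOX difference among those that did not follow the division. DUSP2 was at 31.5, 20.3 and 22.2 CPM in the vehicle samples and at 57.2, 73.9 and 63.8 CPM in the DOX samples. All DOX samples exceeded all vehicle samples, and the log2 difference was 1.36 (SE 0.204), or 2.58-fold. Within the side of vehicle 1 it was 1.12 and within the side of vehicle 2 and 3 it was 1.42. Per length, DUSP2 had 33.7 ± 4.36 RPKM (SD, n = 3) with DOX, the highest of the 10 genes in that group.

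DUSP1 and DUSP8 also did not follow the division. DUSP1 was at 13.3, 16 and 16.9 CPM with vehicle and at 19.7, 18.2 and 18 CPM with DOX, a log2 difference of 0.25 (SE 0.123). DUSP8 was at 2.41, 1.76 and 1.60 CPM with vehicle and at 2.44, 2.91 and 2.76 CPM with DOX, a log2 difference of 0.46 (SE 0.229). In both genes the DOX samples lay above the vehicle samples by small margins, and the values within the sides were positive too (0.44 and 0.25 for DUSP1, 0.23 and 0.51 for DUSP8). DUSP8 has an overlapping lncRNA, KRTAP5-AS1, on the opposite strand.

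The other 7 genes (DUSP4, DUSP5, DUSP6, DUSP10, SPRY2, SPRY4, SPRED1) were higher in each of vehicle 2, vehicle 3 and DOX 1 than in any of vehicle 1, DOX 2 and DOX 3. The same holds for 21.4% of the 16030 genes tested in LNCaP-AI cells. These samples were set apart by the same counts, so the pattern is given with no test. Vehicle and DOX samples overlapped for all 7.

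DUSP6 showed the widest gap. It was at 42.1, 40.2 and 34.5 CPM in vehicle 2, vehicle 3 and DOX 1, and at 0.446, 0.285 and 0.620 CPM (10, 5 and 11 counts) in vehicle 1, DOX 2 and DOX 3. The ratio of the means was 86.5. Across treatment its log2 difference was -1.23 with an SE of 1.94, and within the sides it was -0.05 and -0.25.

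DUSP4 was at 89.3, 92.7 and 76.6 CPM in vehicle 2, vehicle 3 and DOX 1, and at 5.66, 2.74 and 2.59 CPM in vehicle 1, DOX 2 and DOX 3. DUSP10 had 75.5, 80.6 and 67.3 CPM in the former and 4.73, 5.82 and 6.25 CPM in the latter. In both genes the former samples were above all 6 DU-145 samples, whose highest values were 19.4 CPM for DUSP4 and 7.26 CPM for DUSP10. Within the sides, the log2 DOX difference of DUSP4 was -1.05 on the side of vehicle 1 and -0.25 on the other, and that of DUSP10 was 0.34 and -0.21.

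SPRY4 was at 19.3, 23.1 and 18.4 CPM in vehicle 2, vehicle 3 and DOX 1, and at 0.0892, 1.65 and 1.86 CPM in vehicle 1, DOX 2 and DOX 3. Vehicle 1 held 2 SPRY4 counts, against 29 and 33 in DOX 2 and DOX 3, so the value on the side of vehicle 1 (3.16 on the log2 scale) rests on those 2 counts, while the other side gave -0.20. Across treatment the log2 difference was -0.96 (SE 1.59).

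DUSP5 was at 18.5, 19.8 and 16.8 CPM in vehicle 2, vehicle 3 and DOX 1, and at 5.93, 3.08 and 2.82 CPM in vehicle 1, DOX 2 and DOX 3. SPRY2 was at 8.93, 7.88 and 7.45 CPM in the former and 2.59, 2.23 and 2.14 CPM in the latter, and SPRED1 at 39.3, 34.5 and 30.9 CPM and 18.8, 14.5 and 15.2 CPM. For all 3 genes the DOX sample or samples were lowest on each side, with log2 differences within the sides of -0.98 and -0.18 for DUSP5, -0.23 and -0.17 for SPRY2, and -0.34 and -0.25 for SPRED1. DUSP5, 2.07 higher with DOX in DU-145 cells, was thus lower with DOX on both sides in LNCaP-AI cells (-0.97 across treatment, SE 0.823). The values of the lines are set side by side as a description.

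In LNCaP-AI cells 3 of the 10 genes (DUSP1, DUSP2, DUSP8) had every DOX sample above every vehicle sample, as did 21.9% of all genes tested, and none had every DOX sample below (16.1% of all genes). With edgeR 1 of the 10 (DUSP2) was called higher (7.22% of all genes) and 0 lower (5.52%; 0 of the 10 at an unadjusted p under 0.05 and 0 with DESeq2, which gave no adjusted p for 3 of them). With the side as a covariate, 2 members were called higher and 3 lower, in a fit that called 6271 of the 16030 genes tested. That side was itself set from the same counts, and the shares of all genes called in each direction were not counted for this fit. Without DOX 1, 2 members were called lower (DUSP4 at -4.56 and DUSP5 at -2.33), among 3538 genes called. Without DOX 2 or DOX 3, in fits that called 1 gene each, DUSP2 was not called. As in DU-145 cells, nothing is read from these calls of members, because this contrast chose the genes.

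**Figure D3:**
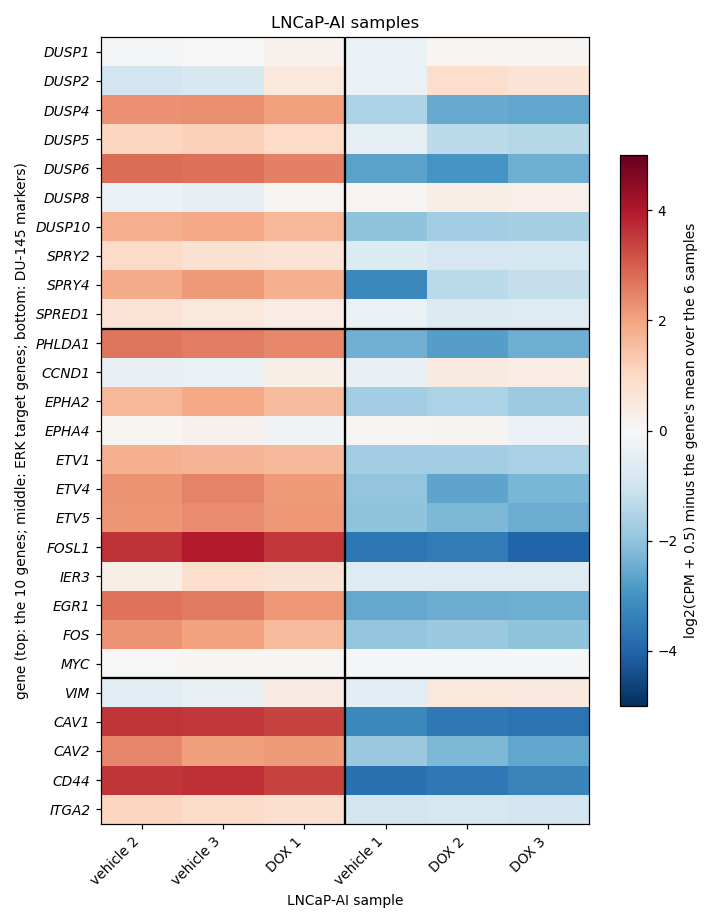
Heatmap of the 6 LNCaP-AI samples (columns) for the 10 genes, 12 ERK target genes and 5 DU-145 markers (rows). Colour gives log2(CPM + 0.5) minus the mean of the gene over these samples. Vehicle 2, vehicle 3 and DOX 1, left of the vertical line, are high for 7 of the 10 genes, while DUSP1, DUSP2 and DUSP8 are not split this way.

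The division was also seen in genes that report ERK output. Of 10 ERK target genes tested in LNCaP-AI cells, 9 were higher in all of vehicle 2, vehicle 3 and DOX 1 (21.4% of all genes), and CCND1 was not. PHLDA1, for example, was at 33.6 to 41.2 CPM in those samples and at 0.457 to 0.713 CPM in the others, and FOSL1, a subunit of AP-1, at 102 to 140 CPM and 0.0563 to 0.285 CPM. The gap was small for MYC, also among the 9, at 284 to 301 CPM and 265 to 271 CPM. Of the JNK and p38 cascade 3 of 11 genes were higher in vehicle 2, vehicle 3 and DOX 1, and of the RAS-ERK cascade 5 of 15, beside the same 21.4%. The samples were set apart by the same counts, and the lists were drawn up with earlier results of these data known. These numbers of genes are therefore given with no test. The part of cells with the DU-145 markers in these values was not tested.

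The vehicle samples of both lines were compared to give the resting levels. This contrast is not the vehicle-DOX contrast that chose the genes, but it uses the same vehicle samples. Its p-values for the 10 genes are therefore not independent of that choice. With edgeR, 4 of the 10 were higher in DU-145 cells (30.2% of 15628 genes tested) and 4 lower (35%), 2 of the latter (DUSP2, DUSP8) having too few DU-145 counts to pass the filter there. DUSP1 and DUSP5 were the genes with the largest excess in DU-145 cells, and DUSP2 with the largest deficit. Since LNCaP-AI vehicle 1 stood apart from vehicle 2 and 3, each value is also given against either side.

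**Figure D4:**
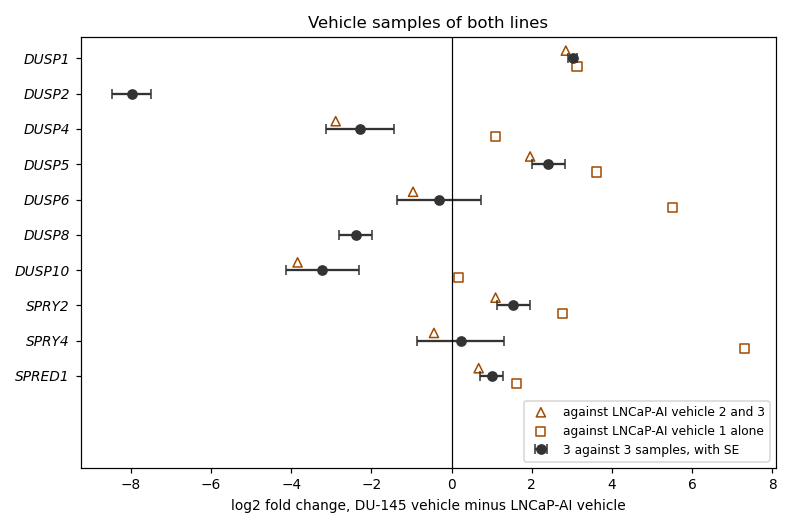
The log2 fold change of DU-145 vehicle minus LNCaP-AI vehicle for each gene. Filled points with SE use 3 against 3 samples, triangles use LNCaP-AI vehicle 2 and 3 and squares vehicle 1 alone. DUSP1, DUSP5, SPRY2 and SPRED1 lie right of 0 under each choice, while DUSP4, DUSP6, DUSP10 and SPRY4 change side.

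DUSP1 was higher in DU-145 than in LNCaP-AI vehicle samples by 3.02 on the log2 scale (SE 0.117, edgeR adjusted p = 4.15e-06), with means of 122 ± 3.04 and 15.4 ± 1.86 CPM (SD, n = 3 each). DUSP5 was higher by 2.41 (SE 0.406, edgeR adjusted p = 0.00155), SPRY2 by 1.54 (SE 0.407, edgeR adjusted p = 0.0123) and SPRED1 by 1.00 (SE 0.29, edgeR adjusted p = 0.0184). In these 4 genes no DU-145 vehicle sample was below any LNCaP-AI vehicle sample. The share of all genes with this pattern was not counted, so nothing is read from it. Against LNCaP-AI vehicle 1 alone, a single sample and so with no test, the values were 3.13 for DUSP1, 3.62 for DUSP5, 2.76 for SPRY2 and 1.62 for SPRED1. SPRED1 was not called without DU-145 vehicle 1 or 3 or LNCaP-AI vehicle 3 (values 0.90 to 1.02, edgeR adjusted p = 0.0544 to 0.0711).

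DUSP2 was the gene most restricted to one line, with 3 counts in all over the DU-145 vehicle samples and 1728 over the LNCaP-AI vehicle samples. Scaled to depth, the level in LNCaP-AI cells was 280 times that in DU-145 cells (exact 95% interval 95.7 to 1360, counting error only). DUSP8 had 12 counts over the DU-145 and 133 over the LNCaP-AI vehicle samples, a ratio of 5.39 (exact 95% interval 2.99 to 10.7, counting error only). Neither overlapped between the lines, a pattern whose share over all genes was not counted. Both passed the filter only through the LNCaP-AI samples, where they are high, so their calls are not used as support, and without 1 of those samples they could not be fitted.

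DUSP10 and DUSP4 were lower in DU-145 cells on average (log2 differences of -3.23 and -2.28, edgeR adjusted p = 0.0164 and 0.0474), but their LNCaP-AI vehicle samples lay on both sides of the DU-145 values. Against LNCaP-AI vehicle 1 alone, with no test, the log2 difference was 1.09 for DUSP4 and 0.18 for DUSP10. Both calls were lost when any 1 DU-145 vehicle sample was left out and without LNCaP-AI vehicle 2 or 3. DUSP6 and SPRY4 were not called (log2 differences of -0.31 with SE 1.05 and 0.22 with SE 1.08). Against LNCaP-AI vehicle 2 and 3 the log2 difference of DUSP6 was -0.96. These samples were set together by the same counts, so the value is given with no test. Against vehicle 1 alone, which held 10 counts, the log2 difference was 5.51, also with no test. SPRY4 differed by -0.44 from vehicle 2 and 3, again with no test, and vehicle 1 held only 2 counts.

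Ordered by mean level, DUSP1, DUSP5, SPRY2, SPRY4 and SPRED1 went from DU-145 DOX through DU-145 vehicle to LNCaP-AI. DUSP1 alone had no overlap between any neighbours in that order, with LNCaP-AI DOX at 18.6 CPM above LNCaP-AI vehicle at 15.4 CPM. DUSP2 and DUSP8 went from LNCaP-AI DOX through LNCaP-AI vehicle to DU-145 DOX and DU-145 vehicle, and only the DU-145 groups overlapped. For DUSP6, all neighbours overlapped. How many of all genes have orders like these was not counted, so nothing is read from them.

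The rest of the phosphatase and Sprouty families did not move as one with DOX. Of 6 further genes tested in DU-145 cells (DUSP7, DUSP9, DUSP16, SPRY1, SPRED2, SPRED3), SPRED2, a relative of SPRED1, rose by 0.82 on the log2 scale (SE 0.0654, edgeR adjusted p = 6.1e-09), from 91.9 ± 1.22 to 161 CPM (n = 3 each). DUSP9, a cytoplasmic ERK phosphatase, fell by 1.09 (SE 0.233, edgeR adjusted p = 0.000697), from 3.97 to 1.83 CPM. DUSP7 (0.08), DUSP16 (0.44), SPRY1 (-0.14) and SPRED3 (-0.33) did not pass, and SPRY3 had 0 counts in every sample. The median over the 6 was -0.028, beside 0.000552 over all genes.

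In LNCaP-AI cells 0 of the same 6 genes were called with edgeR (1 higher and 1 lower at an unadjusted p under 0.05, and 1 higher with DESeq2). SPRY1 was at 2.59, 3.10 and 3.61 CPM with vehicle and at 4.72, 5.42 and 5.41 CPM with DOX (log2 difference 0.71, edgeR adjusted p = 0.0528). SPRED3 had a log2 difference of -0.77 (edgeR adjusted p = 0.0661), and both genes kept their direction on both sides (1.03 and 0.48 for SPRY1, -0.64 and -0.68 for SPRED3). DUSP7 (-0.21), DUSP9 (-0.19), DUSP16 (0.16) and SPRED2 (-0.46) did not pass either. In the vehicle samples, SPRY1, SPRED2 and SPRED3 were 2.02-fold, 2.36-fold and 3.91-fold higher in DU-145 cells, and DUSP7, DUSP9 and DUSP16 were 2.00-fold, 6.80-fold and 9.37-fold lower (edgeR adjusted p = 6.34e-05 to 0.00478).

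**Figure D5:**
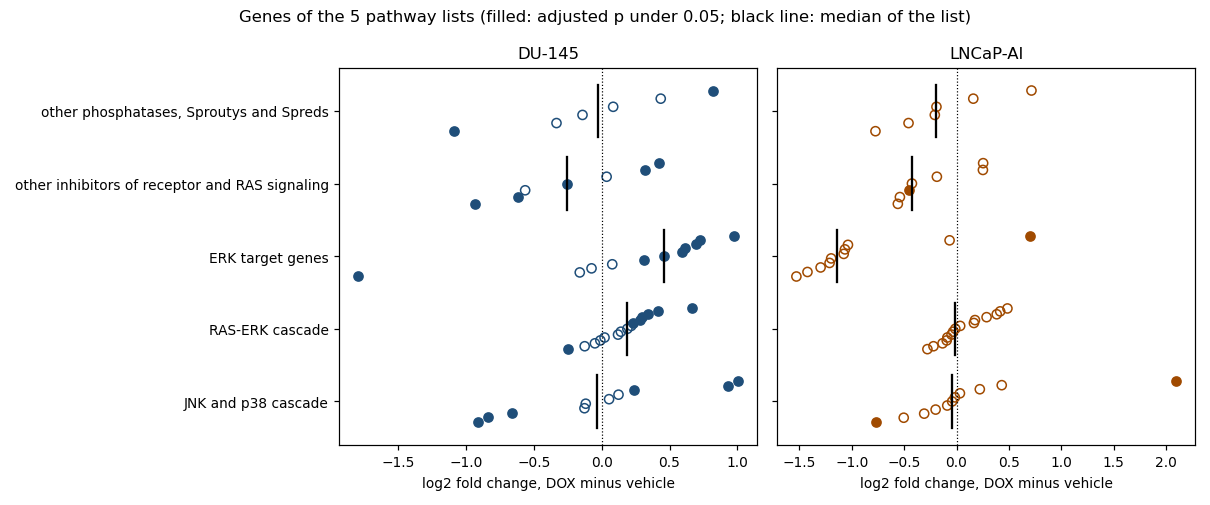
The log2 fold change (DOX minus vehicle) of every tested gene of 5 pathway lists, in DU-145 cells on the left and LNCaP-AI cells on the right. Filled points passed the test, open points did not, and the black line is the median of the list. ERK target genes have a median of 0.46 in DU-145 cells and -1.14 in LNCaP-AI cells, where CCND1 at 0.70 passed.

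ERK target genes mostly rose with DOX in DU-145 cells. This list was not used to choose the 10, but it was drawn up with earlier results of these data known. Of 11 genes tested, 7 were higher (26.3% of all genes) and 1 lower (25.3%), with a median of 0.46. ETV5, an ETS factor induced by ERK, rose by 0.73 (SE 0.0686, edgeR adjusted p = 5.6e-08), the receptor gene EPHA2 by 0.70 (SE 0.0655, edgeR adjusted p = 5.6e-08) and MYC by 0.59 (SE 0.066, edgeR adjusted p = 4.54e-07). FOSL1, ETV4, PHLDA1 and IER3 were the others called higher. EGR1, the immediate-early zinc finger factor, went the other way, from 52.4 ± 3.40 CPM (SD, n = 3) with vehicle to 14.3 to 15.9 CPM with DOX (log2 difference -1.79, SE 0.0891, edgeR adjusted p = 1.03e-11). CCND1, EPHA4 and FOS did not pass, with log2 differences of 0.08, -0.07 and -0.16. In the fit over all 12 samples, ETV5, EPHA2 and EGR1 were not called.

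In LNCaP-AI cells 1 of 10 ERK target genes tested passed. CCND1, the cyclin of early cell cycle entry, rose from 429, 422 and 433 CPM with vehicle to 669, 747 and 717 CPM with DOX (log2 difference 0.70, SE 0.0775, edgeR adjusted p = 0.0123). It was higher on both sides (0.77 and 0.65), although it was not called without DOX 2 or DOX 3 (edgeR adjusted p = 0.0854 and 0.0829). The median over the 10 was -1.14, beside -0.05 over all genes, and 9 of the 10 followed the division of the samples. Within the sides, EGR1 differed by 0.11 and -0.49 and MYC by less than 0.01 in size on both.

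Of the RAS-ERK cascade, 6 of 15 genes rose and 1 fell in DU-145 cells (26.3% and 25.3% of all genes), with a median of 0.19. MAP2K1 and MAP2K2, which encode the MEK kinases, rose by 0.67 and 0.34, and the adaptor GRB2 by 0.41 (edgeR adjusted p = 2.03e-07, 0.000244 and 5.12e-05). NRAS fell by 0.25 (edgeR adjusted p = 0.00924). MAPK3, which encodes an ERK kinase, differed by 0.22 and did not pass. In LNCaP-AI cells 0 of the 15 were called with edgeR (3 higher and 1 lower at an unadjusted p under 0.05, and 2 higher and 1 lower with DESeq2), with a median of -0.01.

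Of the other inhibitors of receptor and RAS signaling, 2 of 7 rose and 3 fell with DOX in DU-145 cells, beside 26.3% and 25.3% of all genes. ERRFI1, an inhibitor of the EGF receptor, rose by 0.42 (SE 0.0676, edgeR adjusted p = 3.57e-05) and PEBP1, which binds RAF, by 0.32 (SE 0.0677, edgeR adjusted p = 0.00065). NF1, the RAS GTPase-activating partner of SPRED1, fell by 0.61 (SE 0.0712, edgeR adjusted p = 7.63e-07), IL17RD, an inhibitor of fibroblast growth factor signaling, fell by 0.94 (SE 0.176, edgeR adjusted p = 0.000184) and RASA1, another RAS GTPase-activating protein, fell by 0.26 (SE 0.0709, edgeR adjusted p = 0.00516). ERRFI1 and SPRED2 were not called in the fit over all 12 samples. In LNCaP-AI cells RASA1 alone of the 7 passed, with a log2 difference of -0.45 (edgeR adjusted p = 0.0396; -0.46 and -0.28 within the sides), a call that was lost in 5 of the 6 fits that left out a sample.

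The list of the JNK and p38 branch holds JNK and p38 kinases, on which DUSP1, DUSP8 and DUSP10 act, and the kinases that activate them. Of its genes, 3 of 10 rose and 3 fell in DU-145 cells, near the shares of all genes (26.3% and 25.3%). MAPK13, a p38 kinase, rose by 1.01 and MAP2K3, which activates p38, by 0.93 (edgeR adjusted p = 4.02e-09 and 3.61e-09), and MAPK8, which encodes a JNK, by 0.23 (edgeR adjusted p = 0.0113). MAPK9, another JNK, fell by 0.84 (edgeR adjusted p = 6.12e-09), MAPK12 by 0.66 (edgeR adjusted p = 0.000707) and MAP2K6 by 0.91 (edgeR adjusted p = 0.0382). The MAP2K6 call was lost with DESeq2, with no filter, with a replicate block and in all 3 fits without a DU-145 DOX sample, and that of MAPK8 in the fit over all 12 samples and without DU-145 DOX 3. In LNCaP-AI cells, MAPK10, the JNK gene known from neurons, rose by 2.10 (edgeR adjusted p = 0.0123), from 2.27, 2.40 and 1.67 CPM to 7.04, 10.4 and 10.3 CPM, and MAPK9 fell by 0.77 (edgeR adjusted p = 0.018). Within the sides the values were 2.12 and 1.75 for MAPK10 and -0.92 and -0.68 for MAPK9. Neither was called without DOX 2 or DOX 3.

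For the lists, an interaction term in a fit of all 12 samples asked whether DOX acted unequally in the lines, and 9.18% of 16800 genes were called. Among ERK target genes it was called for CCND1 (LNCaP-AI minus DU-145, 0.66) and MYC (-0.63), in the RAS-ERK cascade for MAP2K1 (-0.47), and in the JNK and p38 branch for MAPK12 (0.74) and MAPK13 (-1.02). No gene of the other phosphatases and Sproutys was called (edgeR, with 2 higher and 1 lower at an unadjusted p under 0.05, and 1 each way with DESeq2). Of the other inhibitors 0 of 7 were called (2 higher and 1 lower at an unadjusted p under 0.05, and 0 with DESeq2).

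The genes most like DUSP6 across the 12 samples were sought among 12902 genes tested in both lines, by Pearson r of log2 CPM after the mean of the line was subtracted. They were EREG (a ligand of the EGF receptor), NT5E, NTN4, CLDN1 and LAMB3, with r from 0.996 to 0.997. The genes most like SPRY4 were AMPD3, SHFL, ITGA1, XDH and FBXO32, with r from 0.982 to 0.991. Among the 5 genes most like DUSP6 by Spearman rho 1 was the same, and among those most like SPRY4 0 were. These points share treatment, and the LNCaP-AI samples share the division, so the correlations describe these 12 samples only.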

How the data were processed

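Total RNA of the 12 samples (4 groups of 3, cultured in triplicate) was made into TruSeq Stranded mRNA libraries. Per the labels and methods, reads were aligned with STAR (2.7.0) to GRCh38 (GRCh38.p7 in the submitters' processing notes), and the authors deposited raw counts per Ensembl gene without normalization. The counting tool and its strand setting are not given in the sources used here.

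Symbols were matched for 56993 identifiers. A gene entered a fit when 3 or more of its samples held 10 or more counts. Tests used edgeR (4.0.16, R 4.3.3) with TMM, glmQLFit and glmQLFTest, with Benjamini-Hochberg adjustment over all genes tested and a threshold of 0.05. Each line was fitted alone for DOX against vehicle, the 6 vehicle samples for the lines, and all 12 for the interaction. CPM values use TMM factors over all 12 samples. RPKM divides CPM by the exon length of GENCODE release 44 (GRCh38), which may differ from the authors' annotation. Promoters are from RefSeq (GRCh38.p14). Intervals of count ratios are exact (95%) and, like the floor of 3 counts, cover counting error only. No 2 replicates agreed within sampling noise (lowest chi-square per degree of freedom 2.38), and p-values measure only the spread between these samples, which may be technical.

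The members and gene lists were chosen with earlier results of these data known. Named list genes are the up to 3 with the smallest adjusted p per list, line and direction, plus the whole phosphatase and Sprouty list. FOSL1, ETV4, PHLDA1 and IER3 and genes named for not passing were picked after their values were seen. Alternatives were DESeq2 (1.42.0), other normalizations and filters, a replicate block, 1 fit over all samples, leaving out each sample, the side of the LNCaP-AI division as covariate and, added after seeing the data, the line comparison without LNCaP-AI vehicle 2 and 3. The count test was checked on simulated data. Protein sequences were planned and not used here, and some planned genes, 2 of them cell type markers left out of the marker sums, are not reported here.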

Additional observations from a re-analysis of the deposited data

Results flagged for a closer look

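Of the named genes that the members' choice did not touch, 6 had a DOX effect that differed between the lines by the interaction test (edgeR, all 12 samples). MUC1 differed by 1.95 (LNCaP-AI minus DU-145, log2 scale, SE 0.405, edgeR adjusted p = 0.0241). It was reduced in both lines, by a smaller ratio in LNCaP-AI cells, where 2 of the 3 DOX samples held 6 or 8 counts. Mean MUC1 with DOX was 0.262 CPM in DU-145 and 0.279 CPM in LNCaP-AI cells. With vehicle it was 5.69 and 1.58 CPM, so the smaller ratio goes with a lower vehicle level. CCND1 differed by 0.66 (SE 0.0969, edgeR adjusted p = 0.00317), higher with DOX in 3 of 3 LNCaP-AI samples and overlapping in DU-145 cells. MYC differed by -0.63 (SE 0.0959, edgeR adjusted p = 0.00377) and MAP2K1 by -0.47 (SE 0.0849, edgeR adjusted p = 0.00812), each called higher in DU-145 cells and not in LNCaP-AI cells. MAPK12 differed by 0.74 (SE 0.203, edgeR adjusted p = 0.0465), and MAPK13 by -1.02 (SE 0.107, edgeR adjusted p = 0.00076).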

How the results depend on the processing

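In DU-145 cells, 7033 genes were called and 4083 in one fit over all 12 samples, where 2 members were called higher. In LNCaP-AI cells 2043 were called as reported, 3517 with DESeq2, 3933 in one fit over all 12 samples (2 members higher) and 6271 with the side of the division as covariate (2 members higher, 3 lower). Leaving out 1 LNCaP-AI sample gave 1 to 3538 genes (1 without DOX 2 or DOX 3, 3538 without DOX 1, 1096 and 994 without vehicle 2 and 3), with 0 to 1 members called higher and 0 to 2 lower. Between the vehicle samples, members called lower (4 as reported) ranged from 0 to 4 on leaving out 1 sample, in part because DUSP2 and DUSP8 then miss the filter, and without LNCaP-AI vehicle 2 and 3 there were 7 higher and 0 lower, a fit whose spread comes from DU-145 cells alone and assumes that the lone LNCaP-AI sample varies like them. The interaction called 1543 genes, 884 with no filter and 737 to 3471 on leaving out 1 sample. Directions reversed on leaving out 1 sample for DUSP9 in LNCaP-AI cells (-0.35 to 0.10, positive without vehicle 1) and, between the vehicle samples, for SPRY4 (-0.44 to 0.71, negative without LNCaP-AI vehicle 1) and DUSP6 (-0.96 to 0.039, with 0.039 without LNCaP-AI vehicle 2 and 0.000202 without vehicle 3). Without both of these, DUSP4 (1.09), DUSP6 (5.51) and DUSP10 (0.18) reversed. Apart from the filter, the cause was not tested.

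The main fits did not pair samples by replicate number. Correlations of same-numbered deviations were 0.12, -0.09 and 0.07 in DU-145 cells and at most 0.02 between the vehicle samples, which does not exclude a pairing. In LNCaP-AI cells they were -0.94, -0.81 and -0.84. These values cannot show whether cultures were paired, because vehicle 1 and DOX 1 each stand apart from their group, on opposite sides of the division. With a replicate block, LNCaP-AI DOX against vehicle called 0 genes with edgeR (2909 at an unadjusted p under 0.05, and 1662 with DESeq2 and the same block) and 0 members higher, the vehicle comparison 2 members lower with DUSP6 at 0.51, and the interaction 52 genes. The low depth of DUSP2 and DUSP8 limits what DU-145 cells can show.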
